A study of Mus musculus with 8 samples.

Results

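The DNA replication machinery was taken here as 40 genes, namely the helicase subunits Mcm2 to Mcm7, the factors that load and activate the helicase, the replicative polymerases, the sliding clamp and its loader, the single-strand binding protein RPA, the enzymes that process Okazaki fragments and untangle DNA, and the enzymes of deoxynucleotide synthesis. All of them were found by gene symbol in the probe annotation, with 72 of the 46643 probesets on the array. Illumina Sentrix-6 mouse arrays were hybridized with RNA of MPC-5 cells. This mouse podocyte line carries a heat-labile SV40 T antigen that interferon induces, and it is grown at 33°C, where the antigen is active. The cells had been stably transfected, under a CMV promoter, with the +KTS splice form of WT1 bearing the FF-ZZ tag, a modified TAP tag. To differentiate, they were shifted to 37°C for 14 days, with interferon gamma withdrawn from the medium, before extracts were made. The 4 input samples were RNA from these extracts, and the 4 eluates were RNA collected after TEV protease was added to washed IgG beads that had been incubated with the same kind of extract, so that both groups share the line, the tagged protein and the differentiation. Neither cells without the tagged protein nor proliferating cells were among the arrays analysed here. On these arrays, RNA held by the tagged protein and RNA carried along with the beads by other means cannot be told apart in the eluates. By quantitative PCR outside these arrays, the study found Myh10 and other mRNAs enriched from cells with the empty vector too. It concluded that their enrichment did not depend on WT1(+KTS), and it named no replication transcript among those checked.

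Replication starts at origins bound by the origin recognition complex, where Cdc6 and Cdt1 load the Mcm2 to Mcm7 helicase onto DNA before S phase. Once Mcm10, the GINS complex and Cdc45 have activated the helicase, polymerase alpha-primase lays primers, and polymerases delta and epsilon extend them while held to DNA by the Pcna clamp, which the Rfc complex loads. Cells that divide express most of these genes under the control of E2F transcription factors, which the Rb proteins hold in check in cells that have left the cycle, and mature podocytes in the kidney are known as cells that hardly divide.

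In the inputs, transcripts of nearly all replication genes were measurable after 14 days at 37°C. A signal of at least 100 on all 4 input arrays was seen for 38 of the 40 genes, or 95.0%, against 42.4% of the 19406 genes with an annotated symbol. Counted by probeset, 54 of 72 reached it, or 75.0%, against 27.8% of all probesets. The median signal of the arrays lay between 64.9 and 84.6, so a signal of 100 stands only a little above the level of most probesets. The exceptions were Pola1, the catalytic subunit of polymerase alpha, with a mean input signal of 57.5, and Pole2, the second subunit of polymerase epsilon, with 60.1, and a dim probeset does not show that a transcript is absent. At a signal of 200, 35 genes still qualified. Among the brightest probesets, Rpa1 had a mean input signal of 12460 and Mcm5 one of 11774. Genes of mitosis, which are used later in the same cycle, were measured as well: 17 of 24 reached 100 on all inputs, and the proliferation marker Mki67 had input signals between 1070 and 1370 and the spindle protein Prc1 between 5830 and 7520. The cyclins Ccna2 and Ccnb2, the mitotic kinesins Kif11 and Kif20a, the checkpoint kinases Bub1 and Ttk and the ubiquitin-conjugating enzyme Ube2c did not reach 100 on all 4 inputs. In RNA of a whole culture, fewer dividing cells and less of each transcript per cell cannot be told apart, and no array of growing cells gives these signals a reference.

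**Figure D1:**
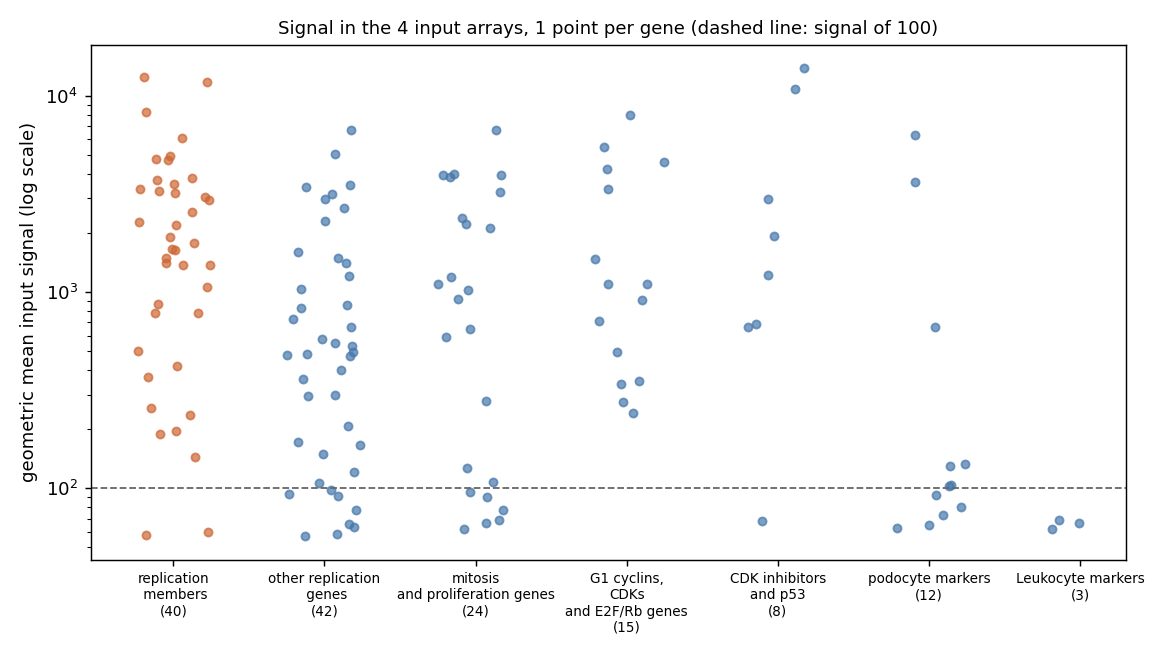
Geometric mean signal over the 4 input arrays on a log scale, with 1 point for each gene at its brightest probeset and the number of genes under each list. Of the 40 replication genes on the left, all but Pola1 and Pole2 lie above the dashed line at a signal of 100, while all 3 leukocyte markers lie below it, and since each probeset has its own brightness, heights are not compared between genes.

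The podocyte label was only partly borne out by the markers. Of 12 podocyte markers on the array, 5 reached 100 on all inputs, namely Synpo, Actn4, Podxl, Plce1 and Trpc6, while nephrin (Nphs1), Wt1, Tcf21, Cd2ap, Ptpro, Kirrel and Lmx1b did not. Wt1 had input signals of 51.5 to 87.0 and was under 100 on all eluates too, so a transcript of the transfected WT1 was not seen at this probeset, and whether the probeset covers the transfected cDNA was not tested. Of other kidney cell types, 0 of 3 leukocyte markers, 1 of 5 endothelial (Kdr), 2 of 7 tubular (Aqp1 and Lrp2) and 2 of 4 mesangial markers (Gata3 and Pdgfrb) reached it. The summed signal of the tubular markers ranged from 2880 to 14011 over the inputs and from 2793 to 12910 over the eluates, with Slc12a1, Slc12a3, Aqp2, Umod and Slc34a1 under 100 on all inputs, and its part in the replication values was not tested.

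The promoters of these genes are shown because one sequence feature, which the choice of genes did not use, was frequent among them. In the RefSeq promoter table for GRCm38.p6, which spans 250 bases before to 50 after each start, 34 of the 40 genes have 42 promoters, with none listed for Gins1, Gins2, Mcm4, Pole, Prim2 and Rfc2. The E2F motifs TTTGGCGC, TTTCGCGC, TTTGCCGC and TTTCCCGC were searched on both strands. At least 1 was found in 13 of the 42 promoters, or 31.0%, against 744 of all 32851, or 2.26%, and the genes were Cdc6, Cdt1, Lig1, Mcm3, Mcm5, Mcm6, Mcm7, Orc3, Pola1, Pold1, Pold3, Pole2 and Rfc3. The CCAAT box, which can share a few end letters with these motifs, was found on either strand in 54.8% of the members' promoters and in 37.4% of all. Stretches of 100 bases from 4 of the promoters are given 5′ to 3′ in the direction of transcription, with the E2F motif matches in capitals. They belong to Mcm5, Mcm6 and Mcm7, which differed in their eluate values, and to Cdc6, the member with the highest fold change.
Mcm5 (chr8:75109336-75109435, plus strand, 173 to 74 bases before the start, 2 overlapping matches): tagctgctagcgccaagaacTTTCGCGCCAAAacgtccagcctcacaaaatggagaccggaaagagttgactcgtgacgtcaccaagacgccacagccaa
Mcm6 (chr1:128359736-128359835, minus strand, 130 to 31 bases before the start, 3 matches, of which the first pair overlap): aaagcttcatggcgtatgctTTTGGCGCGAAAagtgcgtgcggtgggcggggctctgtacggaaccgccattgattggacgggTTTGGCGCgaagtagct
Mcm7 (chr5:138171969-138172068, minus strand, 185 to 86 bases before the start, 1 match on the other strand): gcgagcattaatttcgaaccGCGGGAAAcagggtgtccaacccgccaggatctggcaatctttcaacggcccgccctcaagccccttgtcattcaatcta
Cdc6 (chr11:98907993-98908092, plus strand, 158 to 59 bases before the start, 1 match on the other strand): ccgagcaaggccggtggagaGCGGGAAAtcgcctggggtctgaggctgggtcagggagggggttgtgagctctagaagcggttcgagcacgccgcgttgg

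In the eluates, most replication transcripts stood slightly above the inputs, and the highest differences were those of Cdc6, Mcm7, Mcm2 and Pold1, whereas Rpa3, Orc2 and Rfc4 stood below. Values are the log2 of the deposited signal, and differences are eluate minus input. The same amount of RNA, 650 ng, was amplified from each input and eluate, so the differences compare shares of the RNA and not amounts recovered. A probeset was tested if 3 or more eluates reached a signal of 100. limma was fitted over all 13902 such probesets, among them 53 probesets of 37 replication genes, with Benjamini-Hochberg adjustment and a cutoff of 0.15. Orc4, Pola1 and Pole2 had no tested probeset. Each gene is given at its brightest tested probeset unless another is named. At that probeset the median log2 fold change of the 37 genes was 0.19, with a range of -0.46 to 0.75, against -0.01 over all tested probesets, whose 5th and 95th percentiles were -0.40 and 0.46. It was positive in 26 genes and negative in 11, and none differed by 2-fold or more. Because the filter looks at the eluates alone, a transcript near a signal of 100 that is lower there can drop out of these counts. Orc4, with -0.56, was left out in this way.

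Whether a gene passed the cutoff depended on which input each eluate was set against. With the replicate numbers of the labels as the block, 1 replication probeset was higher in the eluates, the dimmer of the tested pair of Mcm7, against 1.09% of all tested probesets, and 0 were lower, against 0.0288%. At an unadjusted p under 0.05 the same fit held 19 of the 53 probesets, 1 of them lower, against 10.1% of all. These numbers do not match inputs and eluates that were processed together: deviations from the group means, taken across probesets, correlated at 0.47, -0.66, 0.74 and -0.76 within numbers 1 to 4. The study's own pairs were identified by matching a paired test to the p-values of its supplementary list. They were input 1 with eluate 4, input 2 with eluate 1, input 3 with eluate 2 and input 4 with eluate 3. In these pairs the correlations were 0.76 to 0.82. Input 4 also had 0.79 with eluate 2, which is of another pair, so the correlations alone do not set the pairs. With the pairs as block, 23 replication probesets were higher, against 19.2% of all, and 8 were lower, against 20.7%. By gene this gave 19 higher, 6 lower and 12 without a call. All 4 pairs were higher in the eluate for 19 of the 37 genes, or 51.4%, where 21.1% of all tested probesets were, and lower for 4, or 10.8%, where 18.0% were. The stricter separation, in which each eluate lies above each input, was seen for 7 genes, Mcm2, Mcm3, Mcm4, Mcm7, Pola2, Pold1 and Rrm1, against 4.83% of all, and each eluate lay below each input for Rfc4 alone, against 5.01%. The sources do not say that the samples of a group came from separate cultures, so these p-values measure the spread between these arrays, which may be partly technical. limma moved the pair-block standard errors of nearly all members to 0.10, and with each probeset's own variance instead 14 genes were higher, against 9.38% of all tested probesets, and 1, Gins2, was lower, against 5.50%, while Pcna, Rfc1, Pole, Fen1, Rrm2 and all 6 lower genes lost the call.

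**Figure D2:**
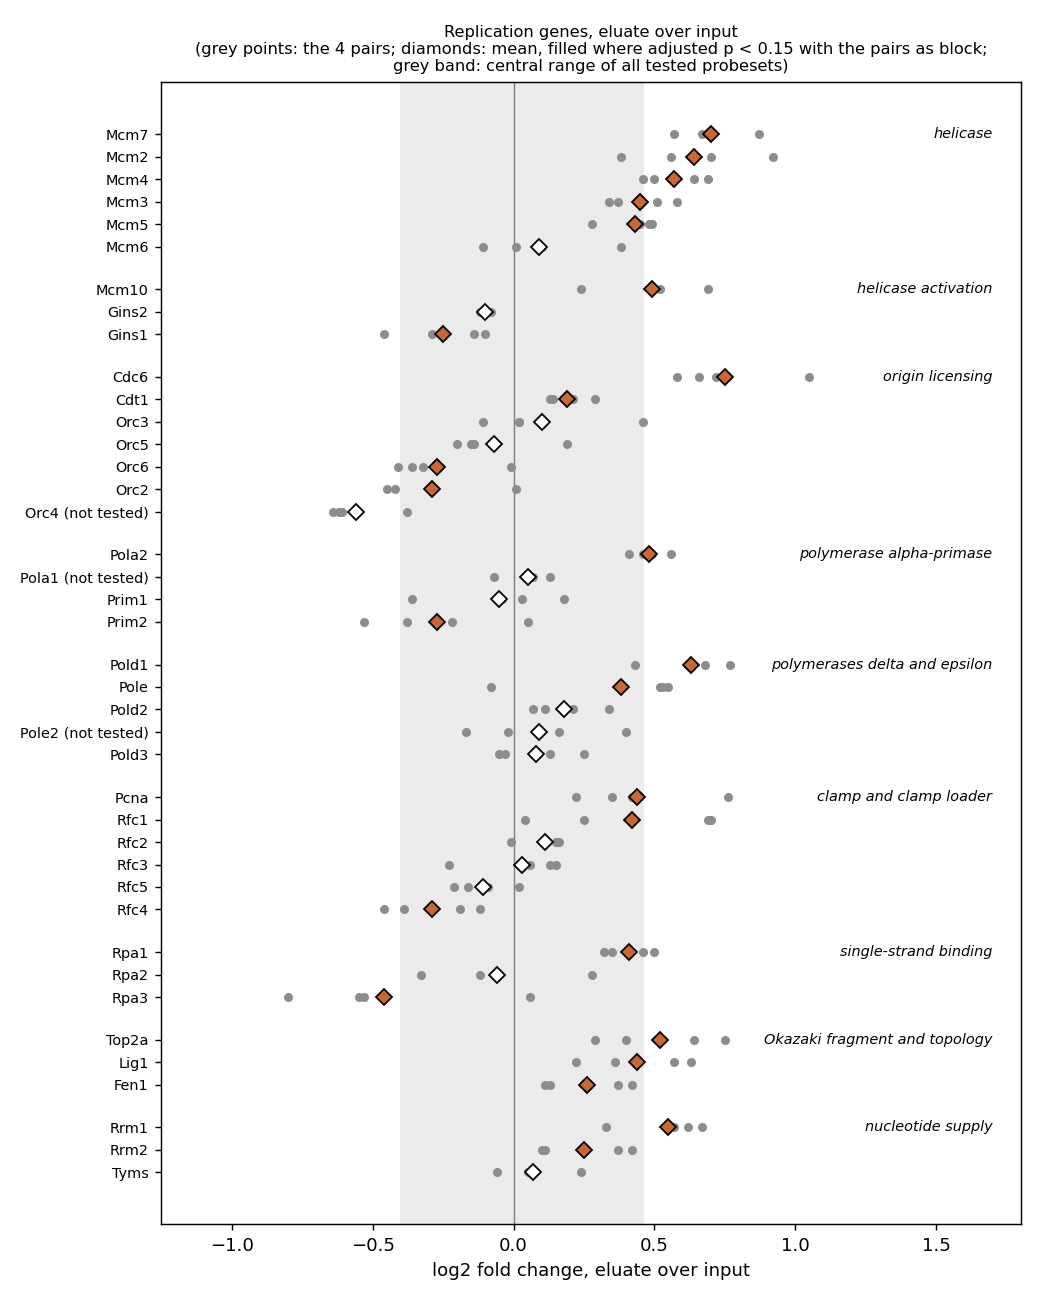
Log2 fold change, eluate over input, of the 40 replication genes grouped by role, with the 4 pairs as grey points and their mean as a diamond that is filled where the gene passed an adjusted p of 0.15 with the pairs as block. The grey band runs from the 5th to the 95th percentile of all tested probesets, -0.40 to 0.46, and Mcm7, Mcm2, Mcm4, Cdc6, Pold1 and Rrm1 are among the diamonds to its right, with Rpa3 and the untested Orc4 to its left.

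The helicase subunits stood together on the upper side, with a median log2 fold change of 0.51 over 6 genes, all positive, and 5 of them higher with the pairs. Mcm7 had log2 signals of 11.98, 12.31, 12.36 and 12.14 on inputs 1 to 4 and of 12.98, 13.06, 12.71 and 12.84 on eluates 1 to 4. The groups did not overlap, and the log2 fold change was 0.70 or 1.63-fold (standard error 0.17, adjusted p = 0.18 by replicate number; pair-block standard error 0.10, adjusted p = 1.35e-08 by pairs). At its dimmer probeset the inputs read 9.29, 9.34, 9.20 and 9.11 and the eluates 10.68, 10.17, 9.97 and 10.20. This is the one that passed by replicate number, with means of 9.24 ± 0.10 for inputs and 10.26 ± 0.30 for eluates (SD, n = 4), an increase of 1.02 on the log2 scale or 2.03-fold (standard error 0.17, adjusted p = 0.0349). In limma its adjusted p was 0.394 without replicate 1 and 0.262 without replicate 3, and no replication probeset then passed, against 0.475% and 0.381% of all tested. At an unadjusted p under 0.05 there were 6 and 13 of the 53, against 4.19% and 5.45% of all. By pairs the adjusted p of this dimmer probeset was 2.31e-15 in limma, where shrinkage set the standard error to 0.10. With the probeset's own variance instead, it was 0.0899 by pairs and 0.4 by replicate number.

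Mcm2 read 11.74, 11.89, 11.88 and 11.66 on the inputs and 12.82, 12.45, 12.04 and 12.44 on the eluates. Eluate 1 was the highest and eluate 3 the lowest of the eluates, yet all lay above the inputs, with a log2 fold change of 0.64 (adjusted p = 0.298 by replicate number and 2.49e-07 by pairs). Mcm4, Mcm3 and Mcm5 had log2 fold changes of 0.57, 0.45 and 0.43, each with a standard error of 0.10 by pairs and higher in 4 of 4 pairs. The exception was Mcm6, which read 11.53, 11.86, 11.87 and 11.48 on the inputs and 11.74, 11.88, 11.58 and 11.91 on the eluates. Its groups overlapped throughout, its log2 fold change was 0.09 (standard error 0.10, adjusted p = 0.55 by pairs), and its other tested probeset gave 0.16.

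**Figure D3:**
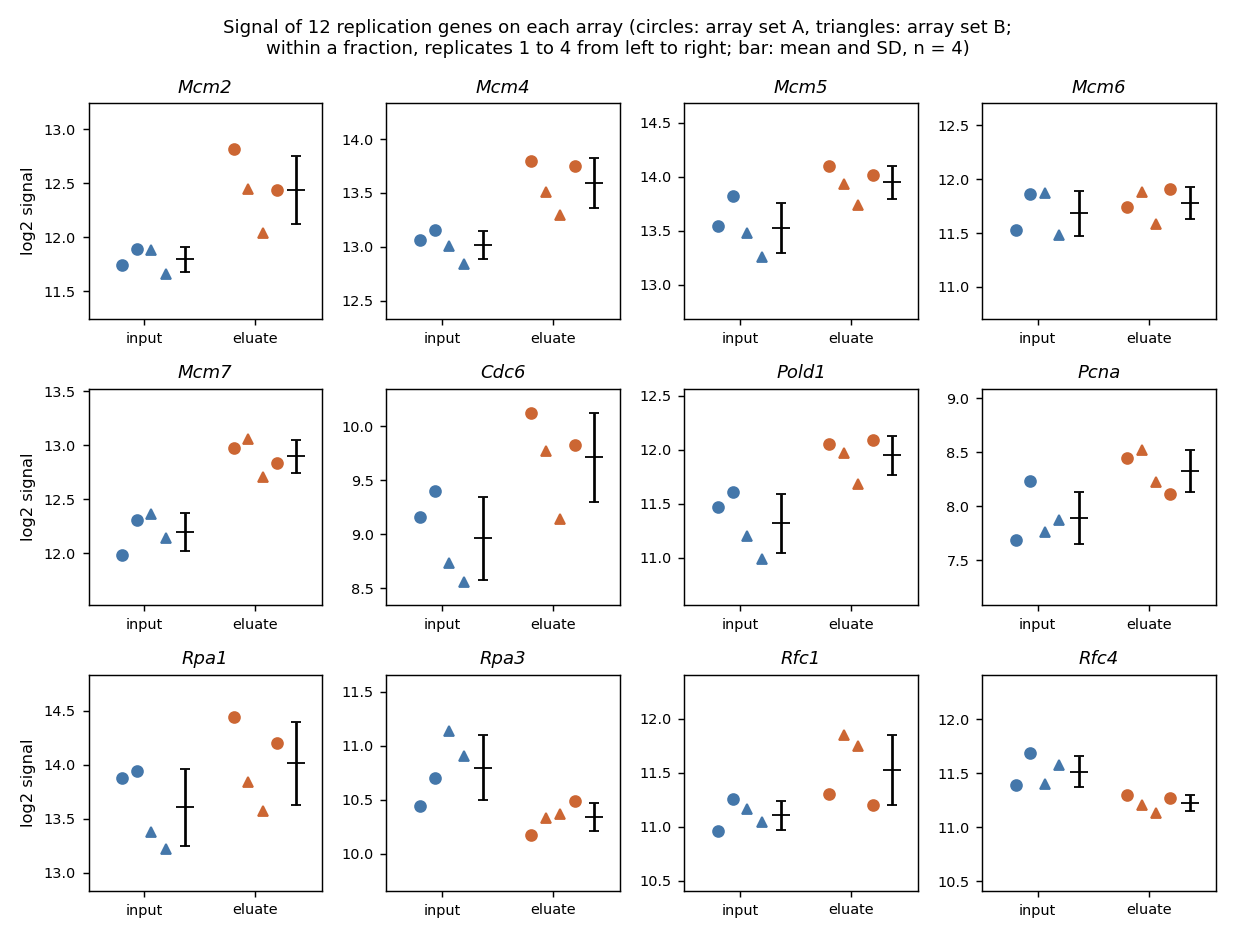
Log2 signal of 12 replication genes on each of the 8 arrays, inputs in blue and eluates in orange with replicates 1 to 4 from left to right, circles for the arrays of set A and triangles for set B, and the mean ± SD of 4 arrays beside them. Each panel spans the same number of log2 units, and the eluates of Mcm2, Mcm4, Mcm7 and Pold1 all lie above the inputs, those of Rfc4 all below, while those of Mcm6 overlap the inputs.

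Among the factors that activate the helicase, Mcm10, which binds it at the origin, read 8.97, 8.72, 8.68 and 8.51 on the inputs and 9.24, 9.18, 8.75 and 9.66 on the eluates. Eluate 3 fell within the range of the inputs and the other eluates lay above it, and the difference was 0.49 (adjusted p = 8.51e-05 by pairs). Gins1, a subunit of the GINS complex, read 9.71, 9.70, 9.53 and 9.52 on the inputs and 9.56, 9.24, 9.06 and 9.62 on the eluates. Eluates 1 and 4 lay within the inputs and eluates 2 and 3 below them, and the difference was -0.25 (adjusted p = 0.0589 by pairs, lost without pair 3 or pair 4). Its partner Gins2 had -0.10 and was lower in 4 of 4 pairs without passing the cutoff.

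Origin licensing held values of both signs. Cdc6, the loader of the helicase, read 9.16, 9.40, 8.73 and 8.56 on the inputs and 10.12, 9.77, 9.14 and 9.83 on the eluates. Eluate 3 lay below inputs 1 and 2, and in each pair the eluate was the higher one, by 0.58 to 1.05, with a log2 fold change of 0.75 or 1.68-fold (standard error 0.20, adjusted p = 0.222 by replicate number; pair-block standard error 0.10, adjusted p = 1.59e-09 by pairs). Cdt1, which brings the helicase to Cdc6, had 0.19 (adjusted p = 0.148 by pairs), a call lost when any of the 4 pairs was left out.

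The subunits of the origin recognition complex did not follow Cdc6. Orc2 read 7.56, 7.59, 7.73 and 7.57 on the inputs and 7.17, 7.29, 7.29 and 7.57 on the eluates. Eluate 4 reached the inputs and the other eluates lay below them, and the difference was -0.29 (adjusted p = 0.0259 by pairs, lost without pair 3). Orc6 had -0.27 (adjusted p = 0.0343 by pairs, lost without pair 3 or pair 4), whereas Orc3 with 0.10 and Orc5 with -0.07 were not called. The brightest probeset of Orc4, annotated to a cDNA clone, read 7.01, 7.10, 7.25 and 7.36 on the inputs and 6.49, 6.62, 6.74 and 6.63 on the eluates. All its eluates lay below its inputs, a difference of -0.56, but only 1 eluate reached a signal of 100, so it was not tested, and its other probesets stayed at 0.14 or less in either direction.

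In polymerase alpha-primase, the accessory subunit Pola2 read 10.54, 10.73, 10.61 and 10.27 on the inputs and 11.15, 11.08, 10.76 and 11.11 on the eluates. The groups did not overlap, and the difference was 0.48 (adjusted p = 8.61e-05 by pairs). Prim2, the large primase subunit, read 9.69, 10.02, 9.38 and 9.36 on the inputs and 9.49, 9.17, 8.98 and 9.74 on the eluates. Its groups overlapped on eluates 1 and 4, with -0.27 (adjusted p = 0.0412 by pairs), a call lost without pair 2 or pair 4, and the small primase subunit Prim1 had -0.05. The untested Pola1 differed by 0.05.

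For the polymerases that copy most of the genome, the catalytic subunits had higher fold changes than their accessory subunits. Pold1, the catalytic subunit of polymerase delta, read 11.47, 11.61, 11.20 and 10.99 on the inputs and 12.05, 11.97, 11.68 and 12.09 on the eluates. All eluates lay above all inputs, with a log2 fold change of 0.63 or 1.54-fold (adjusted p = 0.287 by replicate number and 3.85e-07 by pairs). Pold3, an accessory subunit, read 10.72, 10.94, 10.60 and 10.52 on the inputs and 10.90, 10.73, 10.48 and 10.97 on the eluates. These groups overlapped, with 0.08 (adjusted p = 0.638 by pairs), and the accessory subunit Pold2 had 0.18 (adjusted p = 0.18 by pairs). Pold4, an accessory subunit outside the 40 genes, had -0.08 (adjusted p = 0.608 by pairs). Pole, the catalytic subunit of polymerase epsilon, had 0.38 (adjusted p = 0.00269 by pairs) and was higher in 3 of 4 pairs. Pole2, not tested, differed by 0.09, but it was under a signal of 100 on all arrays, too dim for a comparison with Pole. The small subunits Pole3 and Pole4, which are outside the 40 genes, had -0.29 and -0.22.

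Of the clamp and its loader, Pcna read 7.69, 8.23, 7.76 and 7.87 on the inputs and 8.45, 8.52, 8.22 and 8.11 on the eluates. Input 2 lay just above eluates 3 and 4, all pairs were higher in the eluate, and the log2 fold change was 0.44 or 1.36-fold (standard error 0.17, adjusted p = 0.416 by replicate number; pair-block standard error 0.10, adjusted p = 0.000442 by pairs). Rfc1, the large subunit of the loader, had 0.42 (adjusted p = 0.000983 by pairs). Rfc4, one of the small subunits, read 11.39, 11.69, 11.40 and 11.58 on the inputs and 11.30, 11.21, 11.13 and 11.27 on the eluates. It was the only tested member whose eluates all lay below its inputs, with -0.29 (adjusted p = 0.0245 by pairs, lost without pair 4). The other small subunits Rfc2, Rfc3 and Rfc5 had 0.11, 0.03 and -0.11 and were not called.

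RPA, the trimer that coats single-stranded DNA, was split between its subunits. Rpa1, the largest one, read 13.88, 13.94, 13.38 and 13.22 on the inputs and 14.44, 13.84, 13.57 and 14.20 on the eluates. Eluates 2 and 3 lay below inputs 1 and 2, which are of the other set of arrays, and within pairs the eluate was higher by 0.32 to 0.50, for a log2 fold change of 0.41 (adjusted p = 0.001 by pairs). Rpa3, the smallest, read 10.44, 10.70, 11.14 and 10.91 on the inputs and 10.17, 10.33, 10.37 and 10.49 on the eluates. Apart from eluate 4, which passed input 1, the eluates lay below the inputs, with -0.46 or 1.37-fold lower (adjusted p = 0.387 by replicate number and 0.000337 by pairs). The middle subunit Rpa2 had -0.06 and was not called.

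The enzymes that finish Okazaki fragments and relieve tangling were all positive, with a median of 0.44. Top2a, the topoisomerase of dividing cells, read 11.34, 11.21, 11.13 and 10.95 on the inputs and 11.61, 11.78, 11.24 and 12.09 on the eluates. Eluate 3 lay below input 1 and the other eluates above all inputs, with 0.52 or 1.43-fold (standard error 0.20, adjusted p = 0.42 by replicate number; pair-block standard error 0.10, adjusted p = 2.8e-05 by pairs). A dimmer Top2a probeset annotated to a cDNA clone went the other way, with -0.39 (adjusted p = 0.00193 by pairs). The flap nuclease Fen1 read 12.73, 12.76, 12.51 and 12.29 on the inputs and 13.17, 12.63, 12.42 and 13.10 on the eluates. Its eluates 1 and 4 stood above all inputs and the other 2 within them, with 0.26 (adjusted p = 0.0474 by pairs, lost without pair 2). The 3 tested probesets of DNA ligase Lig1 had 0.44 to 0.59 and were higher in 4 of 4 pairs.

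Of the enzymes that supply nucleotides, Rrm1, the large subunit of ribonucleotide reductase, read 11.57, 11.58, 11.77 and 11.65 on the inputs and 12.26, 12.35, 11.98 and 12.19 on the eluates. All eluates lay above all inputs, with 0.55 or 1.46-fold (adjusted p = 0.317 by replicate number and 9.43e-06 by pairs). Its small subunit Rrm2 had 0.25 (adjusted p = 0.0523 by pairs, lost without pair 2) at the brightest of 3 tested probesets, and the others gave 0.21 and -0.26. Without replicate 4 the value at the brightest probeset was -0.04. Thymidylate synthase Tyms read 11.95, 12.13, 11.36 and 11.37 on the inputs and 12.07, 11.60, 11.43 and 12.00 on the eluates. Here the arrays of set A were high and those of set B low in both fractions, and the eluate differed from the input by 0.07 (adjusted p = 0.655 by pairs).

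Within several complexes the largest subunit had a higher fold change than its partners, a comparison picked after the values were seen and given without a test. The complexes were picked as well, and primase went the other way, with -0.27 for the large subunit Prim2 and -0.05 for the small Prim1. Relative to the mean of Pold2 and Pold3 on the same array, with Pold4 left out, the signal of Pold1 was higher in the eluates by 0.50. Here all 4 eluates lay above all 4 inputs. The same difference was 0.66 for Rpa1 against Rpa2 and Rpa3, 0.49 for Rfc1 against the 4 small subunits and 0.30 for Rrm1 against Rrm2, in each case with overlapping fractions. For Rfc1, eluates 2 and 3 stood 0.84 and 0.85 above the input mean, but eluates 1 and 4 only 0.19 and 0.06. Its inputs 1 to 4 were at -0.13, -0.04, 0.12 and 0.06. For Rrm1, eluates 2 and 3 were at 0.76 and 0.64, and eluates 1 and 4 at -0.04 and -0.17. Its inputs 1 to 4 were at -0.41, -0.30, 0.29 and 0.42. Within each of the study's pairs the eluate was the higher one for Rpa1, Rfc1 and Rrm1, although the fractions overlapped. For 12 of the genes more than 1 probeset was tested, and in 5 of them, Orc5, Rfc5, Rrm2, Top2a and Tyms, the signs differed between probesets.

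The arrays were split into a pair of sets by the sign of their score on the first principal component of all probesets, which held 56.0% of the variance. Scores ran from -0.474 to -0.175 in set A and from 0.172 to 0.534 in set B, and each set held arrays of both fractions. The sets were thus made from these same values, and the counts and the fit by sets below do not test them. Set A held inputs 1 and 2 and eluates 1 and 4, and set B held inputs 3 and 4 and eluates 2 and 3, and the labels name no batch. In the inputs 30 of the 37 replication genes were higher in set A, with a median log2 difference of 0.19, and in the eluates 31 were, with 0.25. Over all tested probesets this held for 9979 and 10178 of 13902, with medians of 0.17 and 0.19. Among the members, set A exceeded set B by 0.67 among inputs and 0.52 among eluates for Tyms, by 0.58 and 0.86 for Rrm2, by 0.64 and 0.51 for Cdc6 and by 0.61 and 0.62 for Rpa1. Rpa3 was the other way round in the inputs, with -0.46 there and -0.02 in the eluates. Outside the members, set A exceeded set B by 2.43 among inputs and 2.26 among eluates for the tubular marker Aqp1 and by 1.64 and 1.78 for Lrp2. Within set A the median eluate-to-input difference of the members was 0.20 and within set B 0.15, against 0.00 and -0.02 over all tested probesets. Of the 37 genes, 24 were positive in both sets, 10 negative in both and 3 of opposite sign. Of all 13902 tested probesets, 4990 were positive in both, 5338 negative in both and 3572 of opposite sign. With the sets as the block, 29 of the 53 probesets passed. Of these 21 were higher, against 14.4% of all tested probesets, and 8 were lower, against 15.2%.

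**Figure D4:**
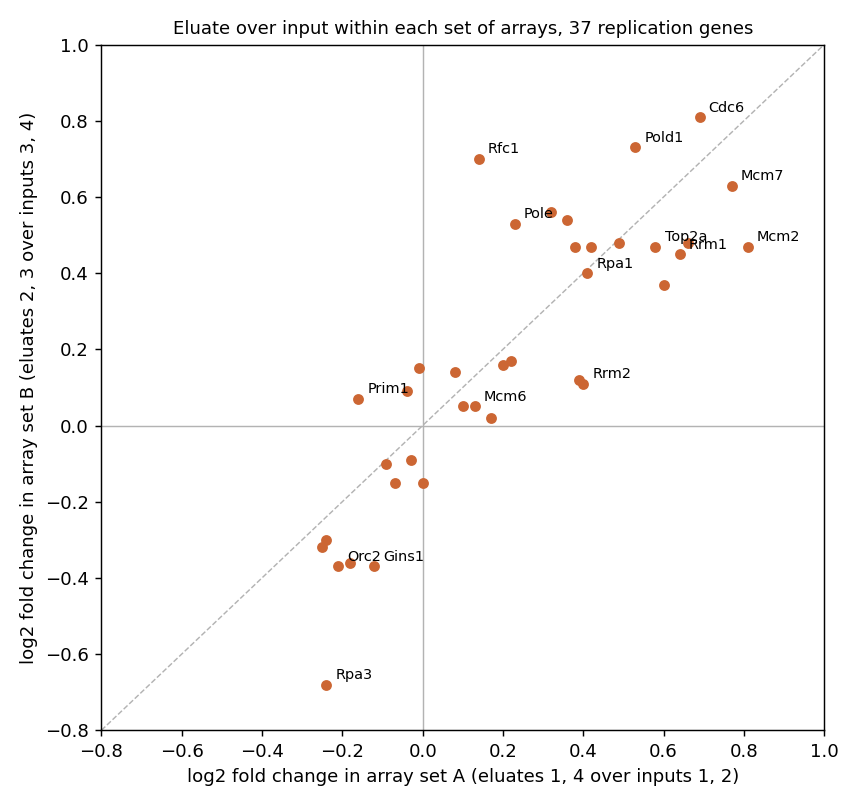
Log2 fold change, eluate over input, of 37 replication genes within array set A (x axis) and within array set B (y axis), with the dashed line where both are equal. Most points lie near the line, with Cdc6, Pold1, Mcm7 and Mcm2 at the upper right, while Rfc1 lies above it, with 0.14 in set A and 0.70 in set B, and Rpa3 below it, with -0.24 and -0.68.

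Other genes that act at the fork also had values of both signs. Of 42 further replication genes on the array 34 were tested, and 3 passed by replicate number, all higher in the eluates, where 1.09% of all tested probesets were: the maintenance methyltransferase Dnmt1 with a log2 fold change of 1.13 (adjusted p = 0.0226), the helicase cofactor Cdc45 with 0.88 (adjusted p = 0.0931) and Uhrf1, which brings Dnmt1 to newly copied DNA, with 0.70 (adjusted p = 0.14). With the pairs 17 of the 34 were higher, against 19.2% of all tested probesets, and 7 were lower, a share near the 20.7% of all. The lowest were Dbf4, the activator of the kinase Cdc7, with -0.45 (adjusted p = 0.000258 by pairs) and Pole3, a small subunit of polymerase epsilon, with -0.29. Of 18 tested mitosis and proliferation genes 0 passed by replicate number, and 3 were at an unadjusted p under 0.05 in limma, against 10.1% of all. By pairs 7 were higher, against 19.2% of all, and 2 lower, against 20.7%, with Mki67 at 0.66 and Tpx2, a spindle assembly factor, at 0.59 on the upper end and the survivin gene Birc5 and the checkpoint gene Mad2l1, both at -0.30, on the lower. Among the podocyte markers Actn4, an actin crosslinker, passed by replicate number with 2.32 (adjusted p = 0.000505).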

How the data were processed

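RNA of 4 inputs and 4 eluates was measured on single-channel Illumina Sentrix-6 mouse arrays. The authors deposited the log2 of their signal for each probeset and array, and BeadStudio and Partek 6.4 are the tools in the submitters' processing notes. The normalization between arrays is not stated in the sources read here. A further 24 columns in other deposited tables match no sample label and were not used. Signals ran from 31.2 to 48158, and precision is limited by the 4 arrays of each fraction.

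Probesets were named by the platform annotation, in which 32794 have 1 gene symbol, 55 have several and 13794 have none, and member genes would also have been named from the study's supplementary list, which added 0 probesets. The 13902 probesets that reached a signal of 100 on 3 or more eluates were fitted in limma 3.58.1 (lmFit, eBayes; R 4.3.3) on the fraction and the replicate number, with Benjamini-Hochberg adjustment and a cutoff of 0.15. The numbers do not pair the samples. The study compared each pulldown with its parallel input, and the pairs were identified as the one matching under which a paired test returns the p-values of its supplementary list, from which no value is given here. The fit with these pairs as block is printed beside the other because it changes calls. Only the fit by replicate number was run on simulated data, which had block effects by replicate number, so the simulation says nothing about the fit by pairs. Tables and plots were made in Python 3.11.15 (pandas 2.3.3, numpy 2.4.6, matplotlib 3.10.9, scipy 1.17.1).

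Every member is named at its brightest tested probeset, with each array for those past the cutoff, for Mcm7, Mcm2, Pcna and Top2a and for the highest and lowest of each role. Of the other lists, genes past the cutoff and the 2 highest and 2 lowest are named, and Pold4 and Pole4 are given beside their polymerases. Members, lists, alternatives and the rule were chosen with earlier results of these data known, so no test over a list was made. Alternatives were other blocks, quantile normalization, normexp, other filters, no variance moderation, a stricter cutoff, and leaving out each replicate or pair.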

Additional observations from a re-analysis of the deposited data

Results flagged for a closer look

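Of 74 groups of 4 arrays examined for the 37 tested replication genes, 1 held an array apart from the rest, where chance gives about 1 in 20. It was input 3 for Orc2, a subunit of the origin recognition complex, with a log2 signal of 7.73 while the other inputs lay between 7.56 and 7.59. The fraction difference of Orc2 with the pairs as block was lost without pair 3, the pair that holds this array.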

How the results depend on the processing

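Of the 53 replication probesets, 1 passed the cutoff with the replicate number as block. The number was 8 with no replicate block, 31 with the study's pairs as block, 29 with the array sets as block and 11 after quantile normalization. It was 0 with no moderation, and 1 both with normexp and at an adjusted p of 0.05. Other filters changed the number tested. With no filter 5 of 72 passed, with a signal minimum of 200 it was 2 of 45 and with a filter on the mean signal 1 of 54. Over all 13902 tested probesets, 156 passed. The number was 832 with no replicate block, 5539 with the pairs, 4124 with the sets and 813 after quantile normalization. It was 174 with normexp, 84 at an adjusted p of 0.05 and 0 with no moderation. With no filter 390 of 46643 passed, with a signal minimum of 200 it was 179 of 9414 and with the mean signal 131 of 15067. Without moderation, which leaves ordinary least squares in place of limma's shrunken variances, an unadjusted p under 0.05 was reached by 15 replication probesets and 1303 in all. With the pairs, added after the data were seen, no moderation gave 18 replication probesets and 2069 in all, and quantile normalization 33 and 7240. Leaving out a replicate number or a pair gave 0 to 30 replication probesets and 53 to 6078 in all. Of these, leaving out a replicate number gave 0 in limma (without replicate 1 or 3, with 6 and 13 at an unadjusted p under 0.05), 3 (without replicate 2) and 10 (without replicate 4), and leaving out a pair gave 25 to 30. Numbers 2 and 4 each take an input of one array set and an eluate of the other, and without number 4 the median of all tested probesets moved to -0.13.

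The median log2 fold change of the members stayed between 0.04 and 0.27, and 38 genes kept a signal of 100 on all inputs without any 1 replicate and after quantile normalization. Signs turned only when a replicate number or a pair was left out. Of the genes concerned Rrm2 was called higher by pairs, and it turned to -0.04 without replicate 4, while the others were not called in either fit. Over these settings the log2 fold change ran from -0.22 to 0.00 for Rfc5, from -0.26 to 0.05 for Gins2, from -0.28 to 0.14 for Rpa2, from -0.19 to 0.01 for Orc5, from -0.11 to 0.27 for Tyms, from -0.02 to 0.22 for both Mcm6 and Orc3, from -0.04 to 0.43 for Rrm2, from -0.05 to 0.17 for Pold3, from -0.07 to 0.11 for Rfc3 and from -0.12 to 0.06 for Prim1. The cause of these changes was not tested.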

Other observations

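Genes that govern entry into S phase were measured in the inputs as well. All 15 G1 cyclins, cyclin-dependent kinases and E2F or Rb genes on the array had a signal of at least 100 on all 4 inputs, and of 8 inhibitors of these kinases and p53 pathway genes 7 did. The kinase inhibitor Cdkn1a had input signals of 12600 to 15400 and Cdkn1c, which marks differentiated podocytes, of 906 to 1730, while Cdkn1b stayed under 100. Between eluates and inputs the G1 list had a median log2 fold change of 0.02, with 0 genes past the cutoff by replicate number in limma (1, Rb1, at an unadjusted p under 0.05, against 10.1% of all tested probesets). With the pairs 3 of the 15 were higher and 3 lower, shares near the 19.2% and 20.7% of all tested probesets. Its highest values were 0.32 for the cyclin Ccnd1 (adjusted p = 0.0107 in limma by pairs) and 0.30 for Ccne2 (adjusted p = 0.0179), and its lowest were -0.49 for Rb1 (adjusted p = 8.29e-05), whose eluates all lay below its inputs, and -0.39 for the related Rbl2 (adjusted p = 0.00173). Among the kinase inhibitors and p53 pathway genes the highest were Cdkn2a with 0.22 and Cdkn1c with 0.05, and the lowest Cdkn2c with -0.26 and Mdm2 with -0.18, with 1 higher and 1 lower past the cutoff by pairs and 0 by replicate number, where 0 also had an unadjusted p under 0.05 in limma.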
